A study of Mus musculus with 6 samples.

Results

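The regions described here are transcription factor peaks in mouse bone marrow-derived macrophages (BMDMs) that lie in any intron of a gene but its first one and outside annotated repeats and CpG islands, called later-intron peaks from here on. They were taken from 6 deposited peak lists, 1 for each of C/EBPα, IRF8 and JUNB in control and in IL-4-treated cells, as the peaks whose annotation names an intron other than intron 1 and whose detailed annotation names no repeat and no CpG island. The rule found 29051 of 134964 peaks. C/EBPα had 5464 later-intron peaks in control and 5301 in IL-4-treated cells, IRF8 had 8057 and 8841, and JUNB had 865 and 523. The wild-type cells came from mice aged 8 to 12 weeks, were differentiated for 6 days with macrophage colony-stimulating factor (L929 supernatant), and were left untreated or given 20 ng/ml IL-4 for 1 h. DSG and then formaldehyde were used to cross-link the chromatin, which was precipitated with an antibody to 1 of the factors, and sequenced from 1 sample of each factor and condition (ChIP-seq). With 1 sample a group there was no replicate error and no test, and a difference between conditions cannot be told apart from a difference between libraries. Each share is given with its 95% Wilson interval and each difference of shares with its 95% Newcombe interval, which cover counting error only. Read depth was not known, the library kit (either of 2) was not given per sample, and neither the unit of the deposited peak score nor its relation to depth was stated. Peaks of any class lay within 10 kb of the start of 7 of 8 macrophage marker genes (70 peaks over the 6 lists), of 3 of 4 B cell, 2 of 4 neutrophil, 1 of 4 T cell and 1 of 4 fibroblast markers (14, 4, 2 and 2 peaks). The part of other cell types in the results was not tested.

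An intron is the stretch of a transcript that is removed by splicing, and macrophage enhancers are commonly found in introns, often far from the promoter they act on. C/EBPα is a bZIP factor of the myeloid lineage, IRF8 is an interferon regulatory factor that binds DNA together with ETS factors such as PU.1, and JUNB is a subunit of the dimeric factor AP-1. IL-4 drives alternative macrophage polarization through its receptor, the JAK kinases and STAT6, which binds inverted repeats of TTC and GAA.

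The windows below are 200 bases on the plus strand of mm10, read from RefSeq's GRCm38.p6. They are examples picked by peak score, and for the group found only after IL-4 also by a motif match. Capitals mark matches on either strand to an AP-1 site (TGANTCA), a C/EBP site (TTGCNNAA), an ETS site (GGAAGT), an ETS-IRF composite (GGAA and GAAA separated by any 2 bases), a STAT-type site with a gap of 3 (TTCNNNGAA) or one with a gap of 4 (TTC and GAA separated by any 4 bases). Matches of different motifs may overlap. A match says only that these letters are present, not that the site is bound. The first group is from the regions with a peak in all 6 lists whose lowest score percentile within a list was highest. Tbc1d5 (a Rab GTPase-activating protein) had an AP-1 and an ETS match, and D5Ertd579e had none.
Tbc1d5, intron 3 of 21, chr17:50993675-50993874: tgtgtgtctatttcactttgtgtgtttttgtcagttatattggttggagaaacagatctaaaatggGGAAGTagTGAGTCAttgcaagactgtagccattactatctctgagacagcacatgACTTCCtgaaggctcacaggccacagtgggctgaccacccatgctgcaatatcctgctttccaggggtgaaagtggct
D5Ertd579e, intron 2 of 8, chr5:36630471-36630670: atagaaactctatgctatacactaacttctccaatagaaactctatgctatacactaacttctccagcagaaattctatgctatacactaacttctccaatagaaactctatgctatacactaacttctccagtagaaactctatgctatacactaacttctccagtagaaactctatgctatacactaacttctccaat

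The next group is from the 3 highest-scoring later-intron peaks per factor that were found only after IL-4. Of these 9 windows 8 held a STAT-type site and 6 held the gap of 4, and the 6 with the gap of 4 are shown, for C/EBPα (Vti1a and Elmo1), IRF8 (Pnkd, Esyt2 and Atg16l1) and JUNB (Cdcp1). Of the windows not shown, that of Rgcc (JUNB) held a gap of 3 and no gap of 4, that of Dip2b (JUNB) held neither, and the window of the highest-scoring C/EBPα peak is not reported here.
Vti1a, intron 7 of 7, chr19:55577547-55577746: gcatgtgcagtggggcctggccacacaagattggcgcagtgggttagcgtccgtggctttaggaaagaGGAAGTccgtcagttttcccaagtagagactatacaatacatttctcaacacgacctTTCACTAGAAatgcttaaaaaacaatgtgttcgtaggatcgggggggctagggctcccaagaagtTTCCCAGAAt
Elmo1, intron 14 of 21, chr13:20349913-20350112: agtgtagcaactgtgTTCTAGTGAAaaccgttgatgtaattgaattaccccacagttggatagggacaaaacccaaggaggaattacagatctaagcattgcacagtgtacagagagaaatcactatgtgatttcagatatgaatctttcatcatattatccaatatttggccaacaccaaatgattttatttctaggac
Pnkd, intron 2 of 9, chr1:74307155-74307354: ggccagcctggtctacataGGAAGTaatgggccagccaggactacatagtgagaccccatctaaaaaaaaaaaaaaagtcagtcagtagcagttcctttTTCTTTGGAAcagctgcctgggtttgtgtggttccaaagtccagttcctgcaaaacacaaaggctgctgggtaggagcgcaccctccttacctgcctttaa
Esyt2, intron 13 of 21, chr12:116351179-116351378: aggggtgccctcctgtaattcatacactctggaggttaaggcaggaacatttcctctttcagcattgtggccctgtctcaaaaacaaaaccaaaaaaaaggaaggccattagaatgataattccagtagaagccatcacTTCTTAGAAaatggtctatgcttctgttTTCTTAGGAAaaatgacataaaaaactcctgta
Atg16l1, intron 3 of 18, chr1:87765905-87766104: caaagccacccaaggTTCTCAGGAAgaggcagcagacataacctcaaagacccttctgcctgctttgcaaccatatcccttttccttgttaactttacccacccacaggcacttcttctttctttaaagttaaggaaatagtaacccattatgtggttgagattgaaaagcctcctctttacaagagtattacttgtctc
Cdcp1, intron 2 of 8, chr9:123188346-123188545: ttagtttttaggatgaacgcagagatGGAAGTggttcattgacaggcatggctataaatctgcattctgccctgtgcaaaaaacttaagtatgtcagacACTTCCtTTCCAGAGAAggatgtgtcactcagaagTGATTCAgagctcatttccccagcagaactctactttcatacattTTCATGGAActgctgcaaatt

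The last group is of the highest-scoring peak of each factor found only in control cells, for C/EBPα (Arhgef28), IRF8 (Zfand2a) and JUNB (Dock10). None of the 9 control-only windows chosen in the same way held a STAT-type site, and 4 held an AP-1 site. Over all control-only later-intron peaks of C/EBPα, IRF8 and JUNB, the gap of 4 was in 3.17, 3.73 and 6.96%. An AP-1 site was in 17.8, 16.9 and 58.4% of them.
Arhgef28, intron 9 of 35, chr13:98008719-98008918: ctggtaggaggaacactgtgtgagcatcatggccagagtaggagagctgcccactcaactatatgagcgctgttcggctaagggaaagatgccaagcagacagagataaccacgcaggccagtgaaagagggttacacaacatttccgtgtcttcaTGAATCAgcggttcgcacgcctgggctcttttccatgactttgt
Zfand2a, intron 3 of 6, chr5:139479167-139479366: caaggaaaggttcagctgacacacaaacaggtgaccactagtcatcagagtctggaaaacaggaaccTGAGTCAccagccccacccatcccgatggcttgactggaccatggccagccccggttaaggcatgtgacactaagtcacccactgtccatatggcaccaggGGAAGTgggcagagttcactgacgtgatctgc
Dock10, intron 2 of 55, chr1:80641967-80642166: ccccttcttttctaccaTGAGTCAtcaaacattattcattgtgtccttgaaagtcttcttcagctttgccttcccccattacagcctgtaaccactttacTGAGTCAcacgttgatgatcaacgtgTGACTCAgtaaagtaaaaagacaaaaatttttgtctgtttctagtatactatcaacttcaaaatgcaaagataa

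Later-intron peaks made up a like share of every list. The share was 22.3% (21.8 to 22.8%) of C/EBPα control peaks and 21.5% (21.0 to 22.1%) after IL-4, 21.5% (21.1 to 21.9%) and 21.0% (20.6 to 21.4%) for IRF8, and 22.0% (20.7 to 23.3%) and 22.5% (20.8 to 24.2%) for JUNB. IL-4 minus control came to -0.777 percentage points (-1.51 to -0.0446) for C/EBPα, -0.459 (-1.03 to 0.110) for IRF8 and 0.540 (-1.57 to 2.69) for JUNB, so the last 2 intervals included 0. The number of later-intron C/EBPα peaks changed by -2.98% and that of all C/EBPα peaks by 0.515%. For IRF8 the changes were 9.73% and 12.1%, and for JUNB -39.5% and -41.0%.

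These peaks lay deep within genes. Their median distance to the nearest transcription start site was 31299 bp for C/EBPα control, 32086 bp for IRF8 control and 34318 bp for JUNB control, against 8443, 8439.5 and 12087 bp for peaks in first introns. Only 17.1% of C/EBPα control, 18.1% of IRF8 control and 15.7% of JUNB control later-intron peaks were within 10 kb of a start site, against 54.2, 53.9 and 43.8% in first introns. The median host intron was intron 4 in every list. Of C/EBPα control peaks 28.7% were in intron 2, 18.4% in an intron after the tenth and 10.3% in the last intron, and the highest intron number over the lists was 125. The median distance was 22207 bp in intron 2 and 47756 bp after intron 10. In about the same share of each list the nearest start site belonged to another gene than the host, 33.7% for C/EBPα control, 33.4% for IRF8 control and 36.9% for JUNB control. The introns that held the peaks were long, with a median of 11244.5 bp for C/EBPα control, and the peaks lay a median of 2258.5 bp from the nearest exon.

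Per base, later introns held fewer peaks than first introns. These densities count all peaks centred in such sequence, those on repeats and CpG islands included. In sequence that is intron 1 of some transcript and never a later intron, C/EBPα control had 17.8 peaks per Mb, IRF8 control 26.2 and JUNB control 2.68. In sequence that is only ever a later intron the values were 9.81, 15.0 and 1.55 per Mb. The first-intron density was thus 1.81 times the later-intron density for C/EBPα control, 1.74 times for IRF8 control and 1.73 times for JUNB control. After IL-4 the ratios were 1.90, 1.73 and 1.39.

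In every list the median later-intron peak scored higher than the median promoter peak, and no higher than the median intergenic peak. The median C/EBPα score in later introns was 11.1 in control cells and 11.4 with IL-4. That of IRF8 was 10.9 and then 10.6, and that of JUNB 7.88 and then 5.96. Promoter peaks had medians of 9.26 and 9.44 for C/EBPα and 7.34 and 6.77 for IRF8, with 6.64 and 5.25 for JUNB, and in first introns the medians were 10.98 and 10.8 (C/EBPα), 9.96 and 10.3 (IRF8) and 7.27 and 6.03 (JUNB). The highest C/EBPα score was at chr3:158062073-158062572 in intron 12 of 14 of Lrrc40, with 265 in control and 234 after IL-4. IRF8 there scored 22.1 and 8.26, and JUNB had a peak in control only (21.8). The highest IRF8 score in control was in intron 4 of Gpc6, which encodes a glypican (258, and 235 after IL-4), and after IL-4 it was in the last intron of Ktn1, intron 41 (284, from 226 in control). The highest JUNB score in both conditions was at chr5:36630273-36630867 in intron 2 of 8 of D5Ertd579e. C/EBPα scored 76.9 in control and 97.2 after IL-4 at this region, IRF8 91.6 and 61.6, and JUNB 54.0 and 39.95. Its window, printed above, is a tandem array: 95.2% of its bases matched the window itself shifted by a fixed number of bases. A similar array stood in the same intron at chr5:36660812-36661701 and had peaks in all 6 lists. Windows that matched themselves at 80% or more made up 1.85% of JUNB control, 0.604% of C/EBPα control and 0.459% of IRF8 control later-intron peaks, and the part of repeat mapping in these scores was not tested.

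After 1 h of IL-4, C/EBPα and IRF8 kept most of their later-intron peaks and JUNB lost most of its own. Of control peaks, 4234 of 5464 (77.5%, 76.4 to 78.6%) for C/EBPα, 6420 of 8057 (79.7%, 78.8 to 80.5%) for IRF8 and 305 of 865 (35.3%, 32.1 to 38.5%) for JUNB overlapped an IL-4 peak of the same factor by at least 1 bp. The control-only share was 22.5% for C/EBPα (1230 peaks), 20.3% for IRF8 (1637) and 64.7% for JUNB (560), beside 21.4, 21.4 and 64.2% of all peaks. The IL-4-only share was 20.4% (1083 peaks, 19.4 to 21.5%), 27.9% (2465, 27.0 to 28.8%) and 41.7% (218, 37.5 to 46.0%), beside 22.0, 30.4 and 39.2% of all peaks. These shares were near the background. With only peaks scoring 10 or more in both lists the JUNB retained share was 17.1%.

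Against first introns, the retained share was 2.13 percentage points lower for C/EBPα (difference -2.13, -3.83 to -0.403). For IRF8 the difference was 1.19 points (-0.225 to 2.62) and for JUNB 4.72 points (-0.294 to 9.62), both with intervals that include 0. Against intergenic peaks the differences were -3.46 (-4.88 to -2.06), -0.943 (-2.09 to 0.198) and -0.695 (-4.70 to 3.37). Promoters stood apart for IRF8: 48.0% of its IL-4 promoter peaks had no control peak, 20.1 points (18.3 to 22.0) more than in later introns.

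**Figure D1:**
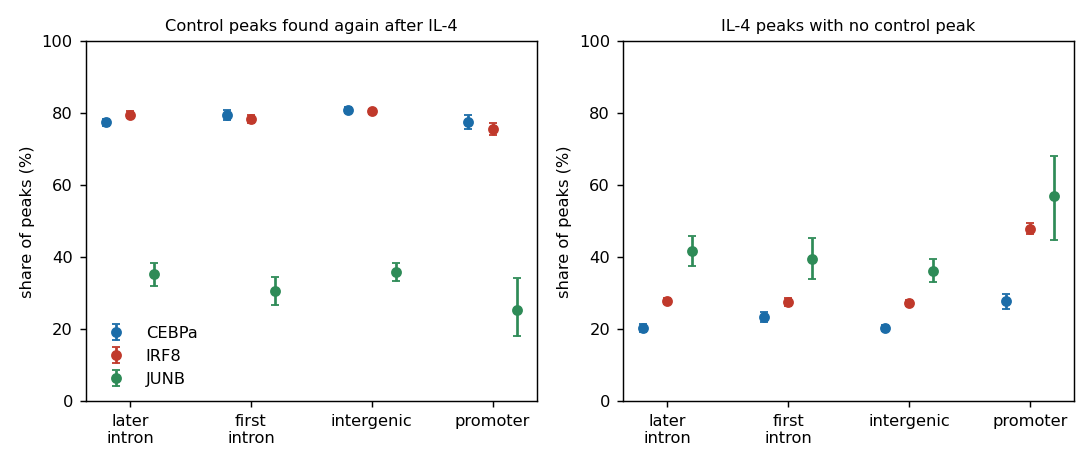
Share (percent, y axis) of control peaks found again after IL-4 (left) and of IL-4 peaks with no control peak (right), by class of position and factor, 1 library each, with 95% Wilson intervals as error bars. In later introns C/EBPα (CEBPa) and IRF8 kept 77.5 and 79.7% and JUNB 35.3%, and on the right IRF8 promoters stand at 48.0% against 27.9% in later introns.

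Peaks with a higher control score were found again more often. With C/EBPα control members split into 4 score groups of equal size, 44.2, 71.2, 94.6 and 100% were kept from the lowest to the highest, and all 1366 of the highest group had an IL-4 peak. For IRF8 the shares were 50.05, 74.0, 94.7 and 99.95% (2014 of 2015 in the highest). For JUNB they were 16.2, 25.5, 38.4 and 60.8%. Kept C/EBPα control peaks had a median score of 14.9 and control-only ones 5.66, and no control-only peak scored over 22.2. Control-only IRF8 peaks scored at most 25.1 and control-only JUNB peaks at most 26.7. IL-4-only peaks reached higher scores for C/EBPα and IRF8 (54.7 and 51.3) and 22.9 for JUNB. By intron number, C/EBPα kept 78.1% in intron 2, 77.2% in introns 3 to 5 and 77.3% beyond, and IRF8 kept 79.7, 79.4 and 79.9%. JUNB kept 31.5, 37.0 and 36.6%.

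Where a later-intron peak was present in both conditions, the score moved little on average for C/EBPα and IRF8. The mean log2 ratio of the IL-4 to the control score was -0.01 (SD over pairs 0.71, n = 4212 pairs) for C/EBPα and 0.07 (SD 0.78, n = 6343) for IRF8. For JUNB it was -0.64 (SD 0.83, n = 305), as the median score went from 10.6 to 6.90. With each score divided by the median of its own list the JUNB mean was -0.29 and the IRF8 mean 0.17. The C/EBPα score was at least 1.5-fold higher at 723 pairs (17.2%, beside 17.7% of all C/EBPα pairs) and at least 1.5-fold lower at 775 (18.4%, beside 17.8%). The IRF8 score was higher by this measure at 1420 pairs (22.4%, beside 23.6%) and lower at 1149 (18.1%, beside 17.5%). The JUNB score was higher at 22 pairs (7.21%, beside 9.6%) and lower at 162 (53.1%, beside 47.9%). These shares were near those of all pairs.

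**Figure D2:**
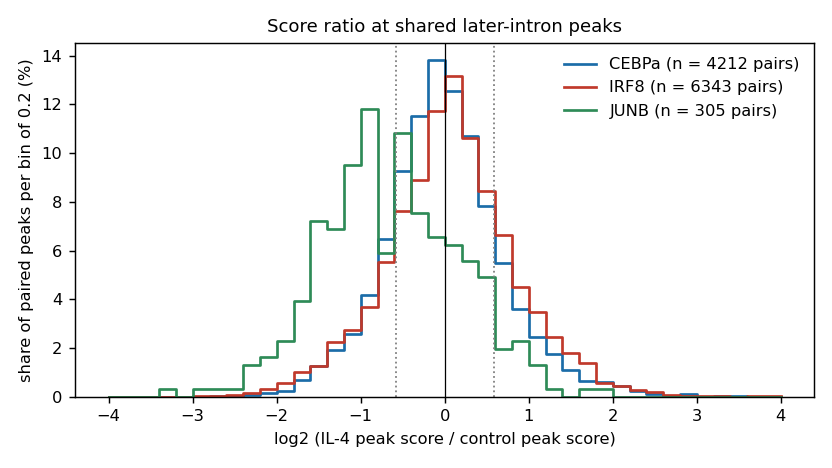
Distribution of the log2 ratio of the IL-4 to the control peak score (x axis) over later-intron peaks found in both conditions, as percent of pairs per bin (y axis) for each factor, with dotted lines at a 1.5-fold change. C/EBPα and IRF8 centre on means of -0.01 and 0.07, and JUNB lies lower, with a mean of -0.64.

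Single regions moved far more than the average. Among pairs scoring at least 5 in both conditions, the highest C/EBPα ratios of IL-4 to control score were in intron 21 of Clec16a, a regulator of mitophagy (7.03 to 72.3), intron 4 of Pex26, a peroxisome assembly gene (7.54 to 58.2), and intron 6 of Tgfbr2, the TGF-β type II receptor (5.13 to 38.0). The lowest ratios were at chr2:14250223-14250596 in intron 4 of Mrc1, which encodes the mannose receptor CD206 of alternatively activated macrophages (31.5 to 5.52, log2 ratio -2.51), in intron 3 of Il17ra (57.04 to 13.4) and in intron 11 of Nckap1l, a subunit of the actin-regulating WAVE complex (24.3 to 5.95). The highest IRF8 ratios were in Phactr1 (5.43 to 51.2), Nek10 (21.8 to 132) and Ep400 (8.04 to 45.0), and the lowest in Col19a1 (29.4 to 6.04), Parg (26.4 to 5.59) and 4930556J02Rik (34.1 to 7.72). The highest JUNB ratios were in intron 3 of Sgk1, a kinase of the AGC family (5.78 to 19.03), in Trhde (7.28 to 15.2) and in Ptpre, a receptor-type tyrosine phosphatase (6.55 to 13.4). The lowest JUNB ratios were in Hmga2 (27.9 to 5.18), Ptchd1 (38.2 to 7.51) and Slc2a9 (49.8 to 11.4). The Hmga2 region is a tandem array like that of D5Ertd579e.

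Regions with a peak in all 6 lists were few, 243 of 13447 (1.81%). Those described here were picked for the highest lowest score percentile within a list, so their high scores follow from that choice. In intron 3 of Clec1a, a C-type lectin-like receptor, C/EBPα scored 68.7 in control and then 115 after IL-4, IRF8 80.1 and then 88.8, and JUNB 17.9 and then 13.9. In intron 3 of Tbc1d5 every factor scored lower after IL-4, C/EBPα 84.9 and then 75.1, IRF8 87.2 and then 67.8, and JUNB 22.7 and then 12.0. None of these was past a 1.5-fold change but the C/EBPα score at Clec1a and the JUNB score at Tbc1d5.

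The 3 factors often shared these regions. In control cells, 3250 later-intron C/EBPα peaks (59.5%, 58.2 to 60.8%) overlapped an IRF8 peak, against 54.8% in first introns (difference 4.63 points, 2.56 to 6.70) and 44.5% at promoters. The share was 61.7% in intergenic peaks (difference -2.21 points, -3.90 to -0.520) and 58.1% in all C/EBPα control peaks. Of later-intron IRF8 peaks 40.1% overlapped a C/EBPα peak and 58.2% neither other factor, beside 37.9 and 60.3% of all IRF8 peaks. Of JUNB peaks 645 (74.6%) overlapped C/EBPα, 716 (82.8%) overlapped IRF8, 583 (67.4%) overlapped both, and 87 (10.1%) neither. In all JUNB control peaks these shares were 72.3, 80.8, 63.9 and 10.7%. JUNB peaks in turn met 11.4% of C/EBPα and 8.85% of IRF8 peaks (11.6 and 8.49% over all classes), the JUNB lists being the shortest. After IL-4 the share of C/EBPα peaks with IRF8 was 62.4% and that of JUNB peaks with IRF8 84.9%, beside 60.6 and 82.6% of all peaks. Peaks with a partner scored higher. C/EBPα control peaks had a median of 14.2 with IRF8 and 8.55 without, IRF8 had 16.3 with C/EBPα and 8.88 without, and JUNB had 8.24 with IRF8 and 6.71 without.

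The motif of each factor was far more frequent under its later-intron peaks than in windows displaced by 2000 bp. A C/EBP site was in 33.7% of C/EBPα control windows and 8.35% of displaced ones, beside 34.3% of all C/EBPα control peaks. An AP-1 site was in 59.9% of JUNB control windows and 6.36% of displaced ones, beside 55.3% of all JUNB control peaks. An ETS-IRF composite was in 15.3% of IRF8 control windows and 1.96% of displaced ones, beside 15.0% of all peaks. A plain ETS site was in 48.0% of IRF8 control windows and 11.8% of displaced ones, beside 45.2% of all peaks. An interferon-stimulated response element (GAAA and GAAA separated by any 2 bases) was in 8.96% of IRF8 control windows and 2.73% of displaced ones, beside 9.70% of all peaks. The shares were higher in higher-scoring peaks. From the lowest to the highest of 4 score groups the C/EBP share in C/EBPα control was 23.1, 29.4, 35.5 and 46.9%. The ETS-IRF share in IRF8 control was 8.29% in the lowest and 28.7% in the highest group, and the AP-1 share in JUNB control 50.9 and 68.7%. C/EBPα control peaks with no other factor held a C/EBP site in 43.5% and those with IRF8 in 27.3%. JUNB control peaks with no other factor held an AP-1 site in 80.5% (70 of 87) and those with both in 53.5% (312 of 583).

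**Figure D3:**
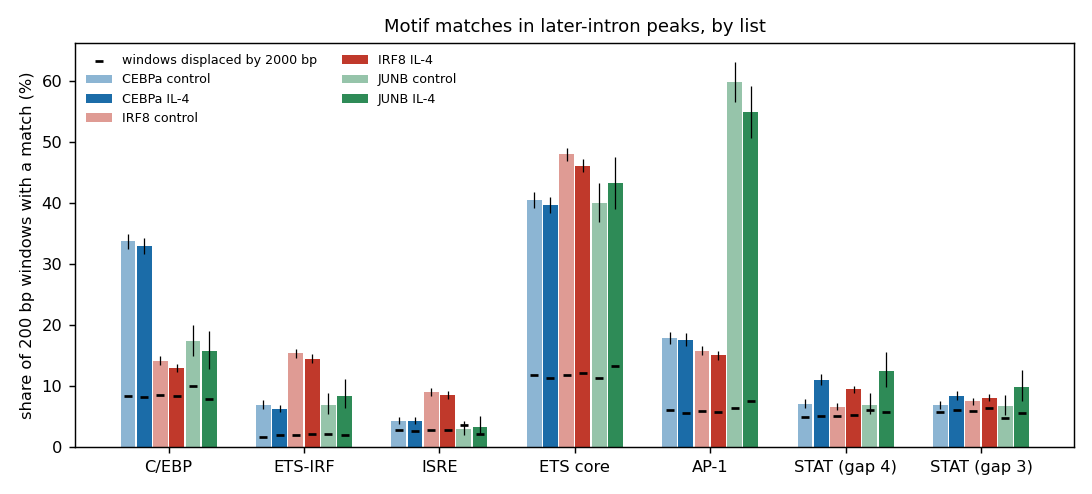
Bars show the share of 200 bp windows with a match to each motif (percent, y axis) in later-intron peaks of each list, with 95% Wilson intervals as error bars, and black dashes show the windows displaced by 2000 bp. The C/EBP motif is highest in the C/EBPα lists (33.7% in control), AP-1 in the JUNB lists (59.9%) and ETS-IRF in the IRF8 lists (15.3%).

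The STAT-type site with a gap of 4 was more frequent after IL-4 in the lists of all 3 factors. It was in 7.10% of C/EBPα control and 11.02% of C/EBPα IL-4 windows. The IRF8 lists had 6.58 and then 9.41%, and the JUNB lists 6.94 and then 12.4%. In displaced windows the shares were 4.87 and 5.02% for C/EBPα and 5.04 and 5.27% for IRF8. The difference lay in the peaks found in 1 condition only. Of IL-4-only C/EBPα peaks 228 of 1083 (21.1%, 18.7 to 23.6%) held the site, against 39 of 1230 control-only peaks (3.17%, 2.33 to 4.31%), a difference of 17.9 points (15.3 to 20.5). For IRF8 the counts were 342 of 2465 (13.9%, 12.6 to 15.3%) and 61 of 1637 (3.73%), 10.1 points apart (8.48 to 11.8). For JUNB they were 42 of 218 (19.3%, 14.6 to 25.02%) and 39 of 560 (6.96%), 12.3 points apart (7.03 to 18.3). Shared peaks lay between for C/EBPα (8.24%) and IRF8 (7.31%), and near the control-only ones for JUNB (6.89%). Windows displaced from the IL-4-only peaks held the site in 5.17, 5.68 and 4.13%, and those displaced from the control-only peaks in 5.12, 5.25 and 5.54%. Control-only peaks of C/EBPα and IRF8 thus held it less often than their displaced windows, and those of JUNB more often.

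The same order held within the central 100 bases, where 14.0% of IL-4-only and 1.38% of control-only C/EBPα peaks held the site, 8.03 and 2.14% for IRF8, and 11.9 and 3.57% for JUNB. Higher-scoring IL-4-only peaks held it more often: 28.0, 18.1 and 24.8% above the median score of the IL-4-only peaks of C/EBPα, IRF8 and JUNB, and 14.0, 9.66 and 13.8% below it. It also followed the score at peaks present in both conditions. The site was in 154 of 723 C/EBPα pairs (21.3%) whose score was at least 1.5-fold higher after IL-4, in 6.45% of those within 1.5-fold and in 19 of 775 (2.45%) of those at least 1.5-fold lower. The IRF8 shares were 13.0, 6.33 and 3.57%. For JUNB they were 13.6% (3 of 22 pairs only), 9.92 and 3.70%. First introns showed differences of 17.7, 9.67 and 8.12 points between IL-4-only and control-only peaks of C/EBPα, IRF8 and JUNB. At promoters the difference was 4.37 points (0.918 to 7.70) for C/EBPα and 0.95 points (-1.09 to 2.65) for IRF8. Over all peaks the IL-4-only shares were 20.1, 11.9 and 17.4% and the control-only shares 3.42, 3.93 and 5.57%, so the pattern was not particular to later introns.

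**Figure D4:**
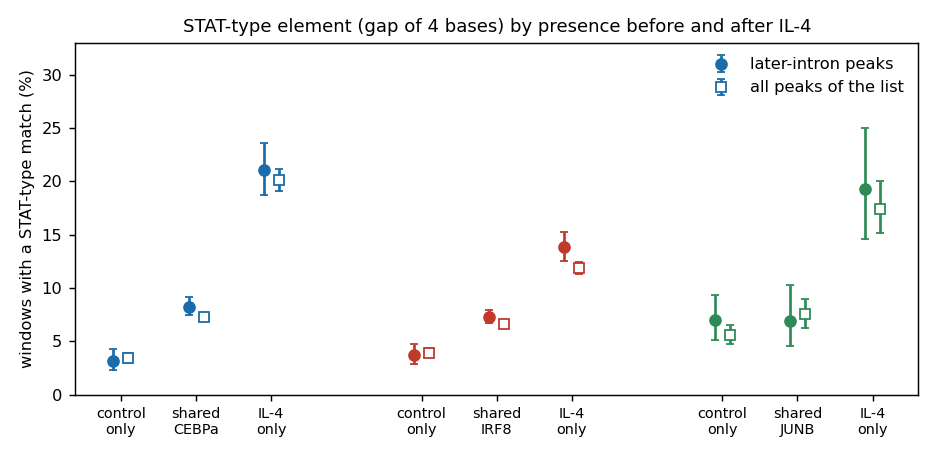
Share of later-intron peaks holding a STAT-type site with a gap of 4 (percent, y axis) among control-only, shared and IL-4-only peaks of each factor, with 95% Wilson intervals as error bars. The IL-4-only peaks of C/EBPα, IRF8 and JUNB stand at 21.1, 13.9 and 19.3%, above the other groups of the same factor.

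The site with a gap of 3 followed the same order with smaller differences. It was in 11.4% of IL-4-only, 7.42% of shared and 4.80% of control-only C/EBPα peaks, in 8.76, 7.79 and 6.17% of IRF8 and in 10.1, 8.20 and 5.89% of JUNB peaks. IL-4-only minus control-only came to 6.56 points (4.35 to 8.85) for C/EBPα, 2.59 (0.942 to 4.18) for IRF8 and 4.2 (0.168 to 9.20) for JUNB. At pairs at least 1.5-fold higher after IL-4 it was in 12.4% for C/EBPα and 13.03% for IRF8, against 4.65 and 5.92% at pairs at least 1.5-fold lower. JUNB went the other way, with 0 of only 22 higher pairs against 14 of 162 lower pairs (8.64%). The motifs of the factors themselves were most frequent in shared peaks. A C/EBP site was in 23.2% of IL-4-only, 28.2% of control-only and 35.3% of shared C/EBPα peaks. An AP-1 site was in 45.4% of IL-4-only, 58.4% of control-only and 62.6% of shared JUNB peaks, IL-4-only minus control-only being -13.0 points (-20.6 to -5.17). An ETS-IRF composite was in 7.87% of IL-4-only, 8.98% of control-only and 16.9% of shared IRF8 peaks.

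The windows printed above belong to regions of this kind. At Vti1a, which encodes a SNARE of vesicle traffic, C/EBPα reached 47.3 and IRF8 18.3, both after IL-4 only. Intron 14 of Elmo1, a partner of DOCK proteins in Rac activation, held an IL-4-only C/EBPα peak of 45.2. IRF8 reached 51.3 at Pnkd, 50.5 at Esyt2 and 50.2 at Atg16l1, an autophagy gene, with no control IRF8 peak. C/EBPα had IL-4-only peaks at Esyt2 (4.12) and Atg16l1 (6.4). At Cdcp1 JUNB (22.9) and C/EBPα (18.5) were found after IL-4 only, and IRF8 went from 9.39 to 21.7. The control-only peaks scored 22.2 for C/EBPα at Arhgef28, 25.1 for IRF8 at Zfand2a and 26.7 for JUNB at Dock10, and the Dock10 window held 3 AP-1 matches. At Zfand2a JUNB stayed, at 9.36 and 9.54. The next control-only C/EBPα peaks were in Nubpl (21.0) and Slc18a1 (19.9). Those of IRF8 were in Chd9 (24.4), where C/EBPα scored 35.4 and 28.7 in control and after IL-4, and in Gm6981 (24.4). Those of JUNB were in 4933406I18Rik (24.7), where IRF8 scored 17.1 and 20.4, and in Col25a1 (24.4), where IRF8 scored 16.7 and 5.76. The Chd9 window, which is among the 9 control-only windows counted above, matched itself at 92.5% and so is a tandem array. The part of repeat mapping in its scores was not tested. JUNB was also found after IL-4 only in Rgcc (19.2), where C/EBPα scored 25.1 and 44.1, and in Dip2b (16.2), where IRF8 scored 8.27 and 23.6.

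Merged where they touched, the later-intron peaks of all lists formed 13447 regions in 5301 host genes, 22.9% of RefSeq protein-coding genes being hosts (5021 of 21896). Regions with a peak of 1 list only numbered 4239 (31.5%), those of 2 lists 4844 (36.0%), and those of all 6 lists 243 (1.81%). A factor is called gained at a region where only its IL-4 list had a peak, and lost where only its control list did. Both C/EBPα and IRF8 were gained at 171 regions, lost at 98 and present throughout at 2673. Regions gained for at least 2 factors numbered 214 (1.59% of all regions), of which 90 (42.1%, 35.6 to 48.8%) held the STAT-type site with a gap of 4. Of 171 regions (1.27%) lost for at least 2 factors, 5 held it (2.92%, 1.26 to 6.66%), and 8.94% of the 6687 regions with no gain or loss did. Over all regions 1350 of 13447 held it (10.04%). It was in 15.3% of the 3216 regions gained for 1 factor and lost for none. Of the 2965 regions lost for 1 factor and gained for none, 5.03% held it. All 3 factors were gained at 3 regions. At Pla2g4a, the cytosolic phospholipase A2, C/EBPα scored 28.6, IRF8 12.8 and JUNB 7.81. At Il31ra, a cytokine receptor gene, they scored 8.47, 11.2 and 3.22, and at Igf2bp2 they scored 4.71, 5.59 and 6.75. All 3 were lost at 7 regions, in Atp10a, Gm5878, Nckap1l, Otulin, Pi4kb, Ptgfrn and Stac.

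Regions were unevenly spread over genes. Of the hosts, 2732 (51.5%) had 1 region, and 703 (13.3%) had at least 5 and together held 5881 regions (43.7%). The number of regions and the length of the host were related across genes (Spearman's correlation 0.472 over 5270 hosts, which are not independent replicates), and hosts with at least 5 regions had a median length of 163748.5 bp, against 53859.5 bp for all hosts. The genes with most regions were Lpp (47), the cAMP phosphodiesterase Pde4d (34), Fggy and Rad51b (30 each), the histone deacetylase Hdac9 and Nsmce2 (28 each), the transcription factor Foxp1 (27), the sphingomyelin synthase Sgms1 (26), and Srgap2 and the miRNA record Mir1195 (25 each). Per 100 kb of gene these ranged from 2.61 in Pde4d to 12.3 in Nsmce2, leaving out Mir1195, whose record is 98 bp long, and the median over hosts was 3.42. The 5 densest hosts were all short miRNA records, Mir1195 among them, so the host's own bounds were checked. Among hosts whose regions all lay within the gene, a check made after the values were seen, Bmf (28.7 per 100 kb, 6 regions), Grk2 (24.7, 5 regions), Slc36a3 (22.3, 6), Adap2 (20.2, 5) and the macrophage colony-stimulating factor receptor Csf1r (19.6, 5) were densest.

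Within these genes the factors differed in what was gained and lost. In Nsmce2, a SUMO ligase of the SMC5/6 complex, IRF8 was present at 14 regions in control and 21 after IL-4 (gained at 8, lost at 1) and C/EBPα at 16 and 20 (gained at 5, lost at 1). In Srgap2, a Rac GTPase-activating protein, C/EBPα was present at 12 and 16 regions and IRF8 at 17 and 20. Losses outnumbered gains for C/EBPα in Hdac9 (4 lost, 1 gained) and Pde4d (6 lost, 4 gained), where IRF8 had 5 gains each and 3 and 2 losses. The directions were the same over all hosts, with C/EBPα lost at 1269 and gained at 1124 regions and IRF8 at 1653 and 2491. In Foxp1 IRF8 was lost at 5 and gained at 2 regions. Hdac9 had no JUNB peak in its 28 regions in either condition, and Sgms1 had JUNB at 4 regions in control and 1 after IL-4.

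Lpp, a LIM-domain protein of focal adhesions, spans chr16:24393350-24992578 and its regions lay 67.2 to 581 kb from the gene's start, with a median gap of 8.50 kb between neighbours. C/EBPα was present at 28 regions in control and 22 after IL-4, with scores from 3.67 to 142 (median 10.8) in control and 4.07 to 163 (median 12.1) after IL-4. IRF8 was present at 32 and 31, with scores of 3.50 to 102 (median 12.2) and 2.87 to 98.8 (median 12.8). JUNB was present at 9 and 3, with scores of 4.13 to 13.7 and 4.21 to 7.71. C/EBPα was gained at 3, lost at 9 and present throughout at 19 Lpp regions, and JUNB was lost at 6 and gained at 0. At chr16:24891443-24891996 all lists had a peak, C/EBPα at 112 and 134 and IRF8 at 44.3 and 48.5 in control and after IL-4. At chr16:24659072-24659531, which holds a STAT-type site, IRF8 went from 8.76 to 48.9.

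**Figure D5:**
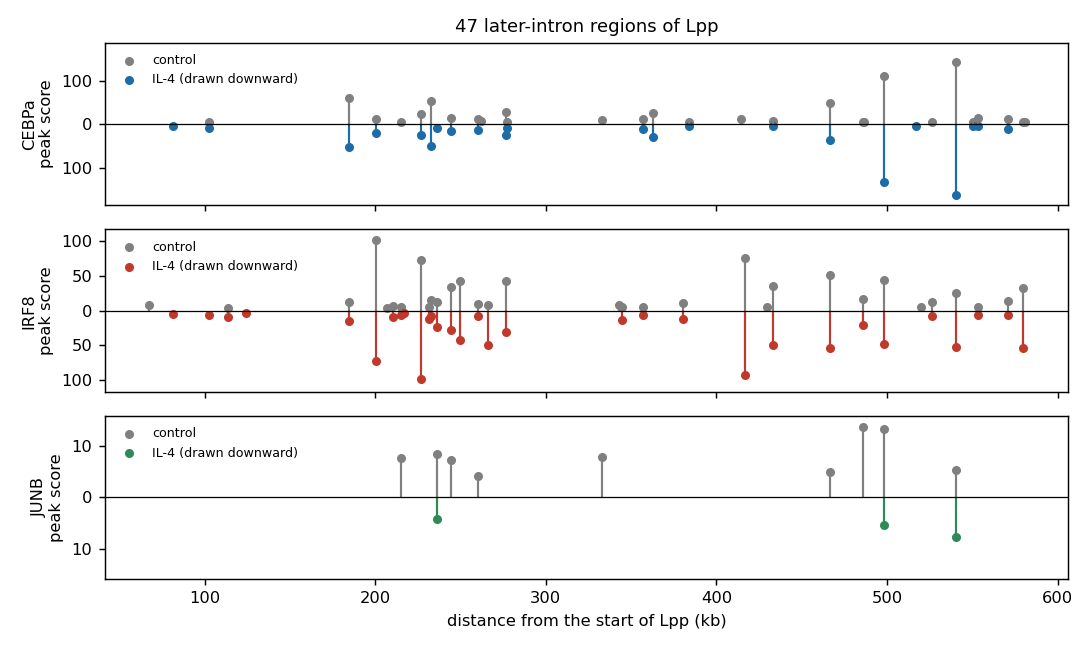
Peak scores (y axis, linear) of C/EBPα, IRF8 and JUNB at the 47 later-intron regions of Lpp by distance from the gene's start in kb (x axis), with control drawn upward and IL-4 downward from 0. The regions lie 67.2 to 581 kb from the gene's start, and JUNB has 9 points in control and 3 after IL-4.

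Over all hosts, C/EBPα was gained at 1124, lost at 1269 and present throughout at 4499 regions (65.3%), IRF8 at 2491, 1653 and 6900 (62.5%), and JUNB at 234, 592 and 333 (28.7%). The gene lists were read against these counts. Of 30 IL-4-activated genes 9 were hosts, with 32 regions, at which C/EBPα was gained 6, lost 4 and present throughout 15 times and IRF8 5, 3 and 17 times. Mrc1 held 9 of them. In its intron 9, at chr2:14275794-14276191, C/EBPα (17.96) and IRF8 (10.4) were both present only after IL-4. In intron 4 IRF8 kept a score of 101 in control and 78.0 after IL-4 while C/EBPα had the low ratio given above, and at chr2:14262026-14262670 in intron 6 C/EBPα scored 55.6 and 63.5 and IRF8 29.7 and 13.5. In Pparg, the lipid-sensing nuclear receptor, both factors were gained in intron 5 (2.96 and 9.43) and both lost in intron 6 (9.11 and 4.46 in control).

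Of 20 IL-4-repressed inflammatory genes 6 were hosts, with 15 regions, C/EBPα being gained at 2, lost at 0 and kept (present in both conditions) at 6, and IRF8 gained at 3, lost at 3 and kept at 7. In intron 5 of Abca1, a cholesterol efflux pump, C/EBPα stayed (89.0 and 75.6) while IRF8 (11.1) and JUNB (6.06) were present in control only. In Fcgr1, an Fc receptor for IgG, C/EBPα was found after IL-4 only (20.3) and IRF8 in control only (7.11). Of 36 cytokine receptor and JAK-STAT genes 24 were hosts, with 76 regions, IRF8 being gained at 16, lost at 6 and kept at 39. In intron 17 of Jak1, a kinase of the IL-4 receptor, C/EBPα (28.8) and IRF8 (3.24) were gained.

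Of 56 macrophage transcription factor genes 28 were hosts, with 214 regions. IRF8 was gained at 50, lost at 28 and kept at 99 of these, C/EBPα at 16, 14 and 83, and JUNB at 4, 10 and 5. Runx2 alone had 23 regions, with IRF8 gained at 12, lost at 3 and kept at 6 and C/EBPα kept at 8 with no gain or loss. In intron 2 of Mitf, a regulator of lysosomal genes, C/EBPα (6.11) and IRF8 (7.96) were gained, and in intron 3 of Foxp1 both were lost (8.64 and 4.61). Of 30 nuclear receptor and corepressor genes 17 were hosts, with 90 regions, C/EBPα being gained at 5, lost at 12 and kept at 32. In intron 2 of Rara, a retinoic acid receptor, C/EBPα (14.9) and IRF8 (10.6) were gained.

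Of 43 phosphoinositide, kinase and immunoreceptor signalling genes 41 were hosts, with 258 regions. In intron 2 of Plcb4, a phospholipase C, IRF8 (41.8) and C/EBPα (16.9) were gained. Intron 2 of Fyn, a Src-family kinase, held regions gained for C/EBPα and IRF8 at 10.6 and 4.16 and at 7.93 and 13.9, and a region lost for IRF8 (5.38) and JUNB (7.81).

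Of 33 adhesion and integrin genes 26 were hosts, with 115 regions, C/EBPα being gained at 20, lost at 11 and kept at 43 and IRF8 at 24, 10 and 60. Cd44, the hyaluronan receptor, had 6 regions. At chr2:102823150-102823627, which held a STAT-type site, C/EBPα (23.1) and IRF8 (19.8) were present only after IL-4, and at chr2:102849955-102850280, which held one too, they scored 3.36 and 23.1. At the other Cd44 regions IRF8 alone was gained at 3.97 and 3.44, and the region in intron 2 had peaks throughout (C/EBPα 26.3 and 14.0, IRF8 11.5 and 10.6). In Plxnc1 C/EBPα was gained (14.7) where IRF8 (7.06) and JUNB (5.78) were lost. Of 33 lysosome and lipid handling genes 21 were hosts, with 58 regions, and in Acsl1, an acyl-CoA synthetase, C/EBPα (10.1) and IRF8 (11.8) were lost. These counts are a description of 1 library per condition, and the lists differ in the number and length of their genes.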

How the data were processed

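ChIP-seq was performed on 6 samples, 1 for each factor and condition. Per the labels, the authors' processing used BWA 0.7.10, SAMtools 0.1.19, MACS2 2.0.10 and HOMER 4.2 on mm10. The deposited lists give for each peak its position, a score, and the annotation by HOMER. The score was made by the authors, its unit was not given in the sources used here, and no read counts, replicates or control library were used here, so depth is unknown.

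Peaks of 2 lists were called shared where they overlapped by at least 1 bp. For score ratios each member was paired with at most 1 peak of the other condition, the longest overlaps first. Windows of 200 bp around the peak centre were read from RefSeq GRCm38.p6, whose chromosome lengths fit the lists' coordinates. Scripts ran under Python 3.11.15 with pandas 2.3.3, numpy 2.4.6, scipy 1.17.1 and pysam 0.24.0 (figures with matplotlib 3.10.9). The overlap and pairing steps were tested on simulated data, and the motif step was not.

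No test across samples was possible with 1 sample a group. The text names the 10 hosts with most regions, the 5 densest hosts with at least 5 regions, the 5 regions in all 6 lists with the highest lowest score percentile, the highest score of each list, per factor the 3 highest IL-4-only and control-only peaks and the 3 highest and lowest score ratios among pairs scoring at least 5, and regions of the gene lists gained or lost for at least 2 factors. One gene list and 2 of the regions these rules pick are not reported here. Other genes were chosen after their values were seen. The members, gene lists and motifs were chosen with earlier results of these data known.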

Additional observations from a re-analysis of the deposited data

Results flagged for a closer look

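IRF8 and JUNB went opposite ways after IL-4, with 1 library in each group. The number of later-intron peaks changed by 9.73% for IRF8 and by -39.5% for JUNB. The mean log2 score ratio at peaks found in both conditions was 0.07 for IRF8 and -0.64 for JUNB. The median width of later-intron peaks also differed, at 273 bp in control and 297 bp after IL-4 for IRF8, and 216 and 192 bp for JUNB. The part of peak width in the overlaps was not tested. The difference between the factors was not tested, and cannot be told apart from differences between the libraries.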

How the results depend on the processing

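No paired analysis was possible because each factor and condition had 1 sample. No difference or log2 ratio whose reported interval excluded 0 changed its sign, and a change of sign was not looked for in the other values. Of the 112 alternatives computed, 64 stayed within the 95% interval of the reported value. Those that moved are given here. With a 50% reciprocal overlap the retained shares of C/EBPα, IRF8 and JUNB were 73.6, 71.4 and 31.6%, and the IL-4-only shares 24.3, 35.1 and 47.8%. With scores of at least 10 in both lists the retained shares were 80.8, 82.5 and 17.1%, the IL-4-only shares 18.7, 22.2 and 36.4%, and the JUNB mean log2 ratio -0.53. With both lists cut to the length of the shorter one, IRF8 had a retained share of 76.3%, an IL-4-only share of 23.1% and a mean log2 ratio of 0.12, and JUNB had 45.4%, 55.5% and -0.86. With repeats and CpG islands included IRF8 retained 78.6%. With scores divided by the list median the mean log2 ratio was 0.17 for IRF8 and -0.29 for JUNB. Among peaks scoring at least 10, later introns held 22.5% of the IRF8 control, 22.2% of the IRF8 IL-4 and 17.7% of the JUNB IL-4 list. With every peak set to 200 bp, 57.5% of C/EBPα control peaks overlapped IRF8 and 38.9% of IRF8 control peaks overlapped C/EBPα, and after IL-4 60.1 and 36.2%. In 100 bp windows a C/EBP site was in 25.6% of C/EBPα control and 25.03% of C/EBPα IL-4 peaks, an ETS-IRF composite in 11.5 and 10.7% of IRF8 peaks, and an AP-1 site in 47.6 and 40.9% of JUNB peaks. The STAT-type site with a gap of 4 was then in 3.42 and 6.34% of C/EBPα, 3.17 and 5.15% of IRF8, and 3.47 and 7.65% of JUNB peaks, in 1.38, 2.14 and 3.57% of control-only and in 14.0, 8.03 and 11.9% of IL-4-only peaks of C/EBPα, IRF8 and JUNB. Shorter windows hold fewer matches by construction, and for the other changes the cause was not tested. Of the 10 hosts with most regions 1 remained by regions per 100 kb, the miRNA record Mir1195, which is 98 bp long. The difference in retention from first introns stayed within its interval under every alternative run for it, as did all values with hosts of NM records only or at least 10000 bp from a start site. Depth was not known, so an absent peak cannot be told from one below the caller's limit, and intervals treat the peaks of a library as independent.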

Other observations

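Mertk, which encodes a receptor tyrosine kinase that macrophages use to take up apoptotic cells, was chosen after its values were seen. It held 6 later-intron regions, and C/EBPα was present at 1 of them in control and at all 6 after IL-4. At chr2:128745640-128746148 in intron 4 C/EBPα scored 97.1 in control and 103 after IL-4, and IRF8 35.0 and 50.1. At chr2:128771010-128771490 in intron 8, which held a STAT-type site with a gap of 4, C/EBPα was found after IL-4 only (14.1) and IRF8 went from 21.8 to 54.8. The other C/EBPα gains in Mertk scored 11.1, 5.77, 3.92 and 7.49. IRF8 was present in both conditions at 4 of the 6 regions and was gained or lost at none.

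Tandem arrays were found among the highest JUNB scores. Of the 100 highest-scoring JUNB peaks of either list, 27% had a window that matched itself at 80% or more, and of the 100 highest later-intron JUNB peaks 5% did in control and 4% after IL-4. The selection of later-intron peaks removed those on annotated repeats and the set of all peaks did not, so these shares are not comparable. Of the 243 later-intron regions with a peak in all 6 lists, 4 (1.65%) were such arrays, in Hmga2, Hgsnat and D5Ertd579e, the last with both of its regions.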
